A study of Homo sapiens with 18 samples.

Results

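The genes described here encode subunits of oxidative phosphorylation, the respiratory chain complexes I to IV and ATP synthase (complex V), that are read from nuclear chromosomes. They were taken from a gene count table of 2 medulloblastoma lines by their symbols: NDUFA, NDUFB, NDUFC, NDUFS and NDUFV genes with a number for complex I, SDHA to SDHD for complex II, UQCR genes and CYC1 for complex III, COX4 to COX8 genes for complex IV and ATP5 genes for complex V. Of 25369 symbols in the table, 87 matched, and the 78 that averaged at least 100 counts over 18 libraries are the members: 37 for complex I, 4 for complex II, 9 for complex III, 11 for complex IV and 17 for complex V. The least counted members were ATP5S at an average of 188 counts and NDUFC2 at 478, and the 9 symbols left out averaged 0.1 (COX8C) to 4.9 counts (the readthrough ATP5J2-PTCD1). All 78 members passed the filter on low counts and were among the 14850 genes tested. ATP5S, ATP5SL and COX7A2L matched by name although they are not core subunits, and NDUFA4 is now regarded as a subunit of complex IV.

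Complexes I and II pass electrons from NADH and succinate to ubiquinone, complex III passes them on to cytochrome c and complex IV to oxygen. Complexes I, III and IV pump protons across the inner mitochondrial membrane, and ATP synthase uses the proton gradient to make ATP. Complex II alone is built wholly from nuclear genes, while each other complex also holds subunits read from mitochondrial DNA, so nuclear and mitochondrial genes supply parts that have to be assembled together.

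D425 and D458 are established lines of Group 3 medulloblastoma, a childhood tumour of the cerebellum in which MYC is often amplified. D425 cells with EYA2 hairpin 6 or hairpin 8, D458 cells with EYA2 hairpin 7 or hairpin 8, and cells of each line with a non-targeting control hairpin were sequenced, with 3 biological replicates in each of 6 groups. EYA2 encodes a transcriptional coactivator and phosphatase. All groups, controls included, carried a zsGreen-marked short hairpin RNA construct, received 1 µg/mL puromycin over 48 h, were sorted for the top 10% of zsGreen signal and had 24 h to recover before polyadenylated RNA was taken.

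The libraries held 21260369 to 31552051 counts. Levels are given as TMM-scaled CPM, library-size scaled counts that are not divided by gene length, so only the same gene is compared between libraries. EYA2 averaged 11.9 ± 2.87 CPM with hairpin 6 and 14.1 ± 3.01 with hairpin 8, against 27.9 ± 14.3 in D425 controls, and 48.1 ± 3.43 with hairpin 7 and 20.3 ± 2.77 with hairpin 8, against 70.3 ± 3.16 in D458 controls (SD, n = 3 each). The EYA2 change passed the test in 3 comparisons and missed it with hairpin 7 in D458 (adjusted p = 0.137). The Group 3 genes OTX2 and MYC were at 1265 CPM or more in every library, while NPR3 was at 0 in 11 libraries and RAX averaged at most 0.40 CPM in the D458 groups. Changes are log2 fold changes ± standard error from edgeR's quasi-likelihood test over all genes, and a gene counts as called where its Benjamini-Hochberg adjusted p is under 0.05.

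Between 8 and 13 of the 78 members were called with any EYA2 hairpin, and none moved by as much as 2-fold. In D425, 4 members rose and 4 fell with hairpin 6, beside 7.31% and 6.84% of all genes tested, and 3 rose and 7 fell with hairpin 8, beside 11.6% and 10.1%. In D458, 11 members rose and 1 fell with hairpin 7, beside 11.5% and 11.1% of all genes, and 12 rose and 1 fell with hairpin 8, beside 12.1% and 11.1%. Under upper-quartile scaling 21 rose and 1 fell with hairpin 7 and 17 rose and 1 fell with hairpin 8, and by DESeq2 20 rose and 1 fell and 17 rose and 2 fell. The called share of members was 10.3% with hairpin 6 and 12.8% with hairpin 8 in D425, against 14.1% and 21.7% of all genes tested. In D458 it was 15.4% with hairpin 7 and 16.7% with hairpin 8, against 22.6% and 23.2% of all genes. Of the genes averaging at least 100 counts, as the members do, 15.3% and 23.4% were called in D425 and 25.2% and 26.1% in D458. The members' share was below these in each comparison by this fit, and that gap was not tested. For hairpin 7 in D458 it was not below the share of all genes in other fits: 28.2% against 21.6% under upper-quartile scaling, 26.9% against 26.1% by DESeq2 and 41% against 40% with replicate number as a block. For hairpin 8 in D458 it was 23.1% against 22.1% under upper-quartile scaling. The median log2 change of the members was 0.06 with hairpin 6 and -0.03 with hairpin 8 in D425, beside 0.01 and 0.02 over all genes, and 0.08 with hairpin 7 and 0.06 with hairpin 8 in D458, beside 0.01 and 0.01. Scaled by upper quartiles, the D425 hairpin 8 median was 0.02 beside 0.07 over all genes. The 2 hairpins of a line share their 3 control libraries, so calls made with both are not independent. By edgeR without a block, 53 of the 78 members were called in none of the 4 comparisons, none was called in the same direction in both lines, and NDUFB5 was called in opposite directions. By DESeq2, ATP5G3, NDUFA7 and NDUFB3 were higher in both lines, and NDUFB5 and ATP5L lower in D425 and higher in D458. With the block 7 members were called in the same direction in both lines (ATP5G3, NDUFA4, NDUFA7, NDUFB3 and NDUFS4 higher, ATP5G1 and NDUFB4 lower) and 5 in opposite directions.

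**Figure D1:**
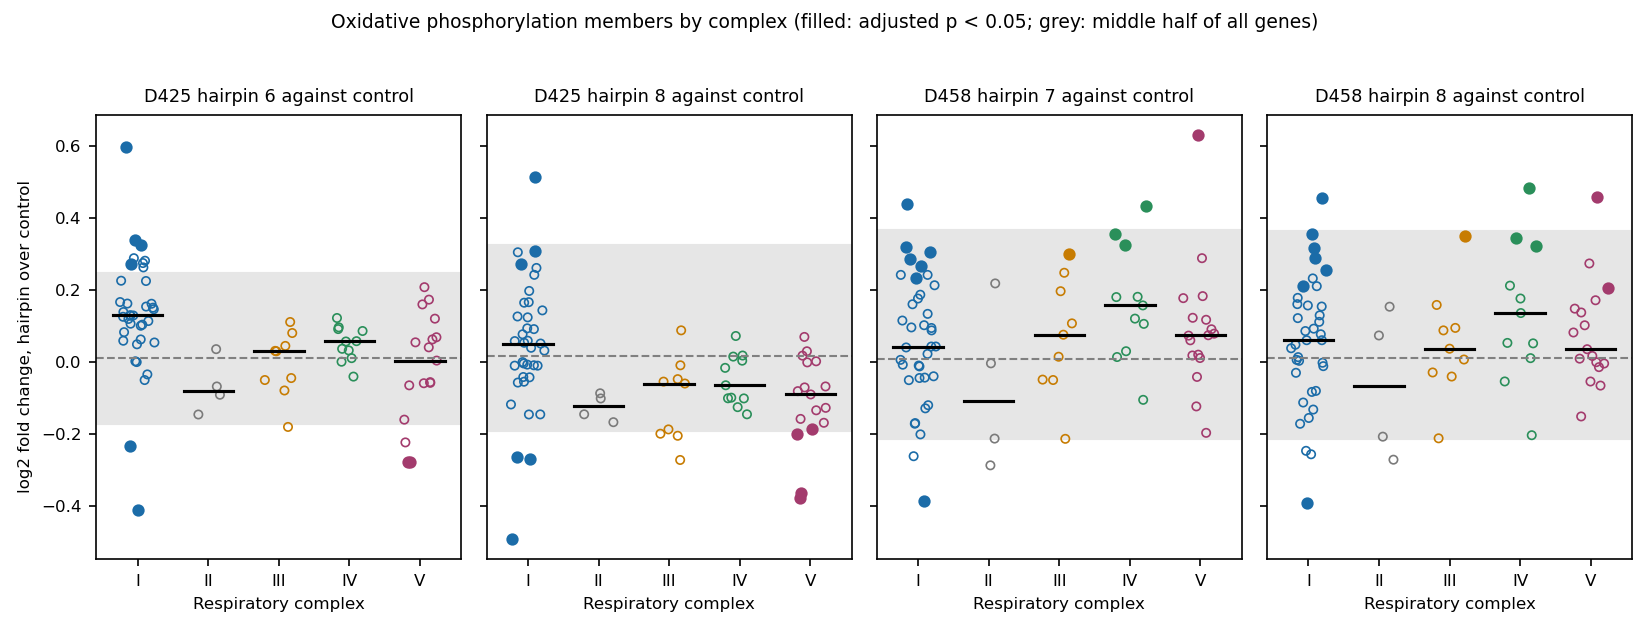
Log2 fold change of each of the 78 members (y axis, hairpin over control) by respiratory complex (x axis) in the 4 hairpin comparisons, with filled circles for adjusted p under 0.05, a black line at each complex's median, a dashed line at the median of all genes and a grey band for the range between their quartiles. In D425 the called members lie on both sides of 0 in complex I and below 0 in complex V; in D458 all called members but NDUFV2 lie above 0, and no complex II member is filled in any panel.

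With NDUFA4 grouped there by its symbol, complex I held the largest changes in D425, in both directions. NDUFA8, an accessory subunit of complex I, had 64.8, 61.9 and 60.1 CPM with hairpin 6 and 57.7, 55.7 and 63.1 with hairpin 8, against 75.0, 82.6 and 90.7 in D425 controls. No hairpin library reached the lowest control, and the log2 changes were -0.41 ± 0.09 (adjusted p = 0.00618) and -0.49 ± 0.09 (adjusted p = 0.00129). NDUFA8 was the only complex I member whose D425 calls held without each of the 6 libraries in turn with either hairpin. In D458 it had 75.5, 75.8 and 84.5 CPM with hairpin 7 and 74.7, 81.4 and 91.1 with hairpin 8, against 73.6, 79.7 and 83.8 in controls, and the groups overlapped (log2 -0.01 ± 0.09 and 0.06 ± 0.09). NDUFB5, an accessory subunit of the membrane arm, had 44.6, 47.6 and 48.4 CPM with hairpin 6 and 45.2, 46.9 and 45.5 with hairpin 8, against 49.9, 56.1 and 59.4 in D425 controls. All hairpin libraries lay below the controls, and the change was -0.23 ± 0.07 (adjusted p = 0.0424) with hairpin 6 and -0.26 ± 0.07 (adjusted p = 0.0171) with hairpin 8. NDUFB4, another accessory subunit, stood at -0.05 ± 0.09 (adjusted p = 0.779) with hairpin 6 and -0.27 ± 0.09 (adjusted p = 0.0495) with hairpin 8, a call lost without any one of the 6 libraries.

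By edgeR without a block, NDUFA12 and NDUFA4 rose in D425 with both hairpins, NDUFA9 and NDUFB9 with hairpin 6 and NDUFA7 with hairpin 8. All are grouped in complex I by symbol, although NDUFA4 is now regarded as a subunit of complex IV. NDUFA4 had the largest rise, at 144, 109 and 124 CPM with hairpin 6 and 139, 95.4 and 121 with hairpin 8, against 103, 67.4 and 77.7 in controls. Within each group, replicate 1 was the highest library and replicate 2 the lowest, and the hairpin 8 range overlapped that of the controls. The log2 changes were 0.60 ± 0.17 (adjusted p = 0.0259) and 0.51 ± 0.17 (adjusted p = 0.0391), and with replicate number as a block the adjusted p was 1.09e-05 and 2.58e-05. NDUFA12, an accessory subunit, had 69.4, 64.8 and 66.9 CPM with hairpin 6 and 64.7, 65.8 and 63.4 with hairpin 8, against 61.3, 47.4 and 51.8 in controls. Each hairpin library was above all 3 controls (log2 0.33 ± 0.09, adjusted p = 0.0197 and 0.27 ± 0.09, adjusted p = 0.0346). The other calls were 0.34 ± 0.09 (adjusted p = 0.0225) for NDUFA9, 0.27 ± 0.09 (adjusted p = 0.0450) for NDUFB9 and 0.31 ± 0.10 (adjusted p = 0.0370) for NDUFA7. No difference between the hairpins passed for these genes. NDUFA9 stood at 0.24 ± 0.09 (adjusted p = 0.0733) and NDUFB9 at 0.20 ± 0.09 (adjusted p = 0.115) with hairpin 8, and NDUFA7 at 0.29 ± 0.10 (adjusted p = 0.0647) with hairpin 6. With the block these 3 passed as well (adjusted p = 0.0126, 0.0392 and 0.00418).

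The promoters of the members with the largest called rise and fall in D425 are shown to set their sequences side by side. They run from 250 bases before to 30 after the RefSeq transcription start on GRCh38.p14, both on the minus strand, at chr7:10940124-10940403 for NDUFA4 and chr9:122159750-122160029 for NDUFA8. Capitals mark matches to the letters bound by NRF1, a factor known to act at respiratory chain promoters: GCGC, any base, then TGCGC, on either strand. In NDUFA8 a pair of matches that overlap each other lies at the start, and NDUFA4 holds none of the 4 motifs searched.
NDUFA4: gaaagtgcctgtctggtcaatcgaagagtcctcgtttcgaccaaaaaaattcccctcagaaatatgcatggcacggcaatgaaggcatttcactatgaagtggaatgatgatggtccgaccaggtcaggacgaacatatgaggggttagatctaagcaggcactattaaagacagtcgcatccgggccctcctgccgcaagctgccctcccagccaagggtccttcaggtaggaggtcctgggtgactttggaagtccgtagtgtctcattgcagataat
NDUFA8: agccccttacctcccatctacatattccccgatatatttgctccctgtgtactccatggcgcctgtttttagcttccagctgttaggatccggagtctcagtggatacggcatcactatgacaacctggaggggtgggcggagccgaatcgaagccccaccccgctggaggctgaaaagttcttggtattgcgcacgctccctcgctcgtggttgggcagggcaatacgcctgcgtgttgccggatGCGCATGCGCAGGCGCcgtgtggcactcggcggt

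Over all promoters, the NRF1 letters were found in 15 of 77 windows of members (19.5%), against 9.26% of 16628 windows of tested genes and 5.69% of all 35116 windows. The ETS letters CCGGAAG, bound by GABPA among others, were in 27.3% of member windows, against 15.5% of tested and 9.94% of all. The YY1 letters AAGATGGC were in 10 member windows, against 3.74% of tested and 2.43% of all, and the ERR letters TCAAGGTCA in 1.30% of member windows, against 0.168% and 0.333%. Both strands were searched, and the ETS and YY1 letters can share the bases AAG. The 77 windows belong to 64 members, of which 27 held none of the 4 motifs. These shares describe the letters, and no binding was measured.

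In complex V, all calls by edgeR without a block in D425 were falls. They were 11.8% of its members with hairpin 6 and 23.5% with hairpin 8, beside 6.84% and 10.1% of all genes. ATP5G1, one of the genes for the c subunit of the rotating ring, had 173, 181 and 174 CPM with hairpin 6 and 157, 157 and 184 with hairpin 8, against 204, 208 and 229 in controls. ATP5E, the epsilon subunit of the central stalk, had 91.9, 90.8 and 88.9 CPM with hairpin 6 and 83.0, 79.1 and 91.2 with hairpin 8, against 115, 99.1 and 115 in controls. For both genes every hairpin library was below every control. The log2 changes of ATP5G1 were -0.28 ± 0.08 (adjusted p = 0.0269) and -0.37 ± 0.08 (adjusted p = 0.00418), and those of ATP5E -0.28 ± 0.08 (adjusted p = 0.0365) and -0.38 ± 0.08 (adjusted p = 0.00488). With hairpin 8, ATP5L, subunit g of the membrane part (-0.20 ± 0.06, adjusted p = 0.0227), fell too, as did ATP5J, a peripheral stalk subunit (-0.19 ± 0.06, adjusted p = 0.0408). With hairpin 6, ATP5L stood at -0.16 ± 0.06 (adjusted p = 0.0769), 0.0441 with the block. ATP5G3, another c subunit gene, stood at 0.21 ± 0.07 (adjusted p = 0.0510) with hairpin 6 and 0.02 ± 0.07 (adjusted p = 0.891) with hairpin 8, neither past the test without a block, although the hairpin 6 value passed with the block (adjusted p = 0.0171).

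With NDUFA4 counted in complex I by its symbol, no member of complexes II, III or IV was called in D425 by edgeR without a block. Over all genes tested, 14.1% were called with hairpin 6 and 21.7% with hairpin 8. With the block, calls included SDHC of complex II with hairpin 8 and UQCRFS1 of complex III, which was lower. Without it, 1 member of these complexes had an unadjusted p under 0.05 with hairpin 6, in complex II, and DESeq2 called 0. With hairpin 8, 1 did in complex II and 3 in complex III, and DESeq2 called SDHC of complex II and UQCRH, the hinge protein of complex III. Log2 changes with hairpin 6 ran from -0.18 (UQCRC1) to 0.11 (UQCR11) in complex III and from -0.04 (COX7B) to 0.12 (COX5A) in complex IV. With hairpin 8 they ran from -0.27 (UQCRC1) to 0.09 (UQCR11) and from -0.15 (COX7B) to 0.07 (COX7A2L).

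The D425 counts moved with single libraries. The 8 calls with hairpin 6 became 8, 2 and 1 when control replicate 1, 2 or 3 was left out, and 1, 3 and 2 when hairpin replicate 1, 2 or 3 was. Calls over all genes moved as well, to 17.1%, 7.89% and 6.11% without a control and 8.41%, 10.0% and 8.36% without a hairpin library, beside 14.1% with all. The 10 calls with hairpin 8 became 10, 4 and 3 when control replicate 1, 2 or 3 was left out, and 4, 7 and 5 when hairpin replicate 1, 2 or 3 was, beside 22.7%, 13.9% and 10.5% and 13.4%, 20.5% and 17.1% of all genes. ATP5G1, ATP5E and NDUFA8 kept the hairpin 8 call each time, and NDUFA8 alone kept the hairpin 6 call. NDUFA12 and NDUFA4 lost the hairpin 6 call without control replicate 2 or 3 or hairpin replicate 1 or 3, with adjusted p up to 0.111 for NDUFA12 and 0.124 for NDUFA4. Their hairpin 8 calls were lost without 5 of 6 libraries for NDUFA12, all but control replicate 1 (adjusted p up to 0.166), and for NDUFA4 without control replicate 2 or 3 or hairpin replicate 1 or 3 (up to 0.175). NDUFB5 lost the hairpin 8 call without control replicate 2 or 3 or hairpin replicate 1, with adjusted p up to 0.108. With replicate number as a block, 18 members were called with hairpin 6 (12 higher, 6 lower) and 20 with hairpin 8 (7 higher, 13 lower). All of those called without the block were among them. The shares were 23.1% and 25.6% of members, beside 27.8% and 37.2% of all genes. Upper-quartile scaling gave 8 higher and 2 lower with hairpin 6, and 6 higher and 4 lower with hairpin 8. The summed level of 6 mesenchymal markers moved with the hairpins, at 42.5 to 85.1 CPM with hairpin 6 and 50.9 to 95.6 with hairpin 8, against 18.5 to 33.1 in controls, and 5 of 6 had a higher mean with hairpin 6 and 6 of 6 with hairpin 8. COL3A1 averaged 7.76 CPM with hairpin 6 and 10.6 with hairpin 8, against 2.26 in controls, while LUM averaged at most 0.537 CPM in any D425 group, and the part of these markers in the changes above was not tested. The sum of 4 glial markers was 27.7 to 37.4 CPM with hairpin 6 and 17.6 to 31.5 with hairpin 8, against 43.7 to 52.8 in controls. SLC1A3 made up nearly all of it and was the only one of the 4 with lower means, GFAP averaged 0.855 CPM with hairpin 6 and 0.746 with hairpin 8, against 0.708 in controls, and AQP4 and ALDH1L1 were each at 0 in 12 of 18 libraries. Their part in the members' values was not tested. In bulk RNA, fewer cells with a transcript and less of it per cell cannot be told apart.

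**Figure D2:**
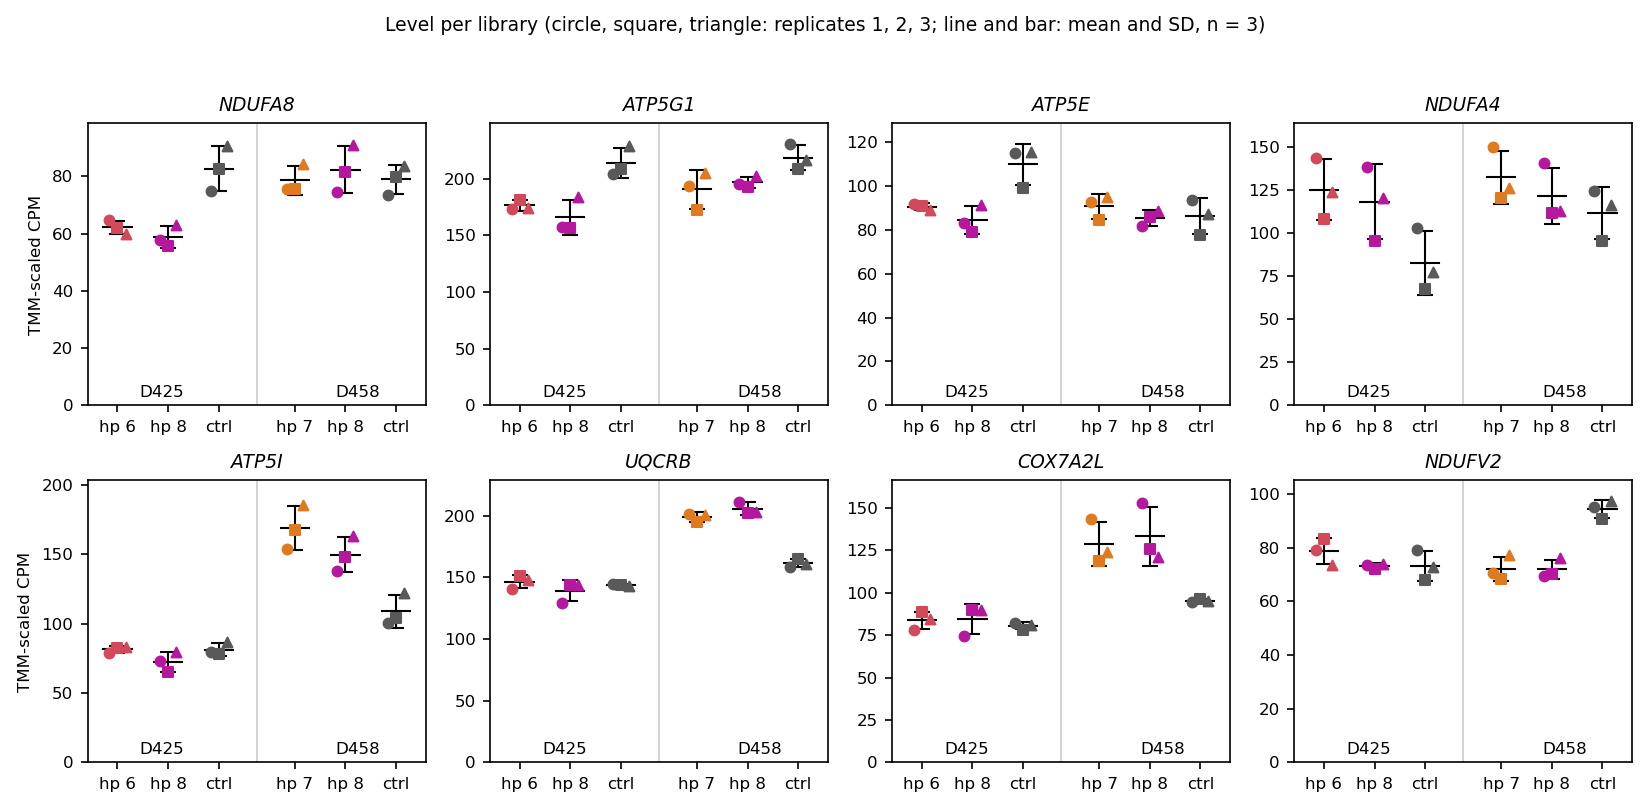
TMM-scaled CPM (y axis) of 8 members in every library, grouped on the x axis by hairpin (hp) and control (ctrl) within D425 and D458, with circle, square and triangle for replicates 1, 2 and 3 and a line and bar for the mean and SD (n = 3). NDUFA8, ATP5G1 and ATP5E lie below the D425 controls with both hairpins, ATP5I, UQCRB and COX7A2L above the D458 controls and NDUFV2 below them.

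In D458 the members of complex I called by edgeR without a block rose except for NDUFV2. They were 18.9% of complex I with each hairpin, beside 22.6% of all genes with hairpin 7 and 23.2% with hairpin 8. Of the 6 rises with hairpin 7, 5 were also called with hairpin 8. With the block, calls of lower members also included NDUFB4 and NDUFS3. NDUFV2, an iron-sulfur subunit of the module that takes electrons from NADH, had 70.7, 68.4 and 77.3 CPM with hairpin 7 and 69.4, 70.3 and 76.0 with hairpin 8, against 95.1, 90.9 and 97.2 in D458 controls. All hairpin libraries lay below the controls, and the change was -0.39 ± 0.07 (adjusted p = 0.00243) with hairpin 7 and -0.39 ± 0.07 (adjusted p = 0.00223) with hairpin 8. In D425 its changes were 0.10 ± 0.07 and -0.00 ± 0.07. NDUFA3, an accessory subunit, had 53.3, 48.9 and 52.9 CPM with hairpin 7 and 50.3, 51.6 and 55.1 with hairpin 8, against 32.4, 39.3 and 42.8 in D458 controls. The groups did not overlap (log2 0.44 ± 0.10, adjusted p = 0.00495 and 0.45 ± 0.10, adjusted p = 0.00378). NDUFS1, the largest subunit of the electron-carrying arm, had 123, 123 and 127 CPM with hairpin 7 and 124, 128 and 126 with hairpin 8, against 105, 105 and 107 in controls. Its rise was smaller, 0.23 ± 0.06 (adjusted p = 0.0167) and 0.26 ± 0.06 (adjusted p = 0.0101), and the 3 libraries of each group lay close together. NDUFA10, an accessory subunit of the membrane arm, rose by 0.32 ± 0.08 and 0.36 ± 0.08, NDUFB3 by 0.29 ± 0.09 and 0.29 ± 0.09 and NDUFB1 by 0.31 ± 0.10 and 0.32 ± 0.10. NDUFA2 was called with hairpin 7 (0.27 ± 0.09, adjusted p = 0.0445) and stood at 0.23 ± 0.09 (adjusted p = 0.0748) with hairpin 8, and NDUFB5 was called with hairpin 8 (0.21 ± 0.07, adjusted p = 0.0473) and stood at 0.10 ± 0.07 (adjusted p = 0.356) with hairpin 7.

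In complex III 1 member and in complex IV 3 members rose in D458, each with both hairpins. That is 11.1% of complex III and 27.3% of complex IV, beside 11.5% of all genes higher with hairpin 7 and 12.1% with hairpin 8. UQCRB, a small subunit of complex III, had 202, 195 and 200.2 CPM with hairpin 7 and 211, 202 and 203 with hairpin 8, against 158, 165 and 161 in controls. Every hairpin library was above every control. The change was 0.30 ± 0.06 (adjusted p = 0.00270) with hairpin 7 and 0.35 ± 0.06 (adjusted p = 0.000989) with hairpin 8, the smallest adjusted p of any member with that hairpin. COX7A2L, which helps complexes III and IV join into supercomplexes, had 143, 119 and 124 CPM with hairpin 7 and 153, 126 and 121 with hairpin 8, against 94.2, 96.1 and 95.2 in controls, with every hairpin library above the controls. Its changes were 0.43 ± 0.10 (adjusted p = 0.00582) and 0.48 ± 0.10 (adjusted p = 0.00309). COX6B1, a subunit at the contact between the monomers of dimeric complex IV, had 187, 159.8 and 181 CPM with hairpin 7 and 182, 165 and 178 with hairpin 8, against 134, 138 and 141 in controls. COX5B, a structural subunit, had 178, 171 and 179 CPM with hairpin 7 and 170.2, 175 and 182 with hairpin 8, against 117, 158 and 146 in controls. All hairpin libraries of both genes were above the controls, and control replicate 1 of COX5B was far below the other controls. The changes were 0.35 ± 0.07 (adjusted p = 0.00275) and 0.34 ± 0.07 (adjusted p = 0.00317) for COX6B1, and 0.32 ± 0.09 (adjusted p = 0.0156) and 0.32 ± 0.09 (adjusted p = 0.0154) for COX5B. By edgeR without a block no other member of complexes III and IV was called. DESeq2 also called UQCRFS1, UQCRQ, COX4I1 and COX6A1 with hairpin 7 and UQCR10 and COX6C with hairpin 8. The lowest log2 changes were those of UQCR10 in complex III (-0.21 with each hairpin) and COX7A2 in complex IV (-0.11 and -0.20).

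ATP5I, subunit e of ATP synthase, which takes part in forming its dimers, had the largest rise of any member in D458 with hairpin 7. It had 154, 167 and 186 CPM with hairpin 7 and 138, 148 and 163 with hairpin 8, against 100.3, 104 and 122 in D458 controls. The groups did not overlap, and the log2 changes were 0.63 ± 0.10 (adjusted p = 0.000511) and 0.46 ± 0.10 (adjusted p = 0.00412). Its exons overlap those of MYL5 on the other strand, and the strand setting of the counting is not known, so reads of the pair may be mixed. The same holds for NDUFA3 with TFPT, NDUFS1 with EEF1B2, NDUFB3 with FAM126B and NDUFA2 with IK and TMCO6. NDUFS1 also overlaps GCSHP3 on its own strand. ATP5G3, a c subunit gene, was called with hairpin 8 (0.20 ± 0.07, adjusted p = 0.0394) and stood at 0.18 ± 0.07 (adjusted p = 0.0685) with hairpin 7, 0.0285 with the block. ATP5G1, which fell in D425, stood at -0.20 ± 0.08 (adjusted p = 0.0813) and -0.15 ± 0.08 (adjusted p = 0.176) in D458, and with the block at 0.0216 and 0.0721.

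The promoters of the members with the largest called rise and fall in D458 are shown for the same comparison of motifs. That of ATP5I lies at chr4:674247-674526 on the minus strand and that of NDUFV2 at chr18:9102449-9102728 on the plus strand of GRCh38.p14, both from RefSeq. Capitals mark a pair of NRF1 matches and, after the start, 1 ETS match in ATP5I; NDUFV2 held none of the 4 motifs in this window.
ATP5I: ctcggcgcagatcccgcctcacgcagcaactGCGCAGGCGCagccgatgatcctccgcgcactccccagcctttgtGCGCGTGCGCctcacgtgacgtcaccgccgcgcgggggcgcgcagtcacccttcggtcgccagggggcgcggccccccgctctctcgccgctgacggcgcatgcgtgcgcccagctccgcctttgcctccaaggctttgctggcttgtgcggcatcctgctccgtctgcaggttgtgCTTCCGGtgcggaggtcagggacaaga
NDUFV2: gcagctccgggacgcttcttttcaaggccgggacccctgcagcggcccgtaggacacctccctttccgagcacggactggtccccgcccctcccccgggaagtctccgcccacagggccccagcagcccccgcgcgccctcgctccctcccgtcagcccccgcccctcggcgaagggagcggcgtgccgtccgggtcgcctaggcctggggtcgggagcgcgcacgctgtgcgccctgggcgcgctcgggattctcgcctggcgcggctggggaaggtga

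In D458 most calls held without any single library. With hairpin 7, leaving out single libraries gave 8 (hairpin replicate 1, with 8.49% of all genes called) to 16 calls (hairpin replicate 2, 19.1%), and with hairpin 8 it gave 11 or 12, with 9.65% to 21.8% of all genes called. ATP5I, NDUFV2, UQCRB, COX6B1, NDUFA3, COX7A2L, NDUFA10 and NDUFS1 kept both calls each time. COX5B lost the hairpin 7 call without hairpin replicate 1 (adjusted p = 0.0539), and without control replicate 1 its log2 change was 0.22 with each hairpin (adjusted p = 0.0455 with hairpin 7 and 0.0478 with hairpin 8). NDUFB3, NDUFB1, NDUFA2, NDUFB5 and ATP5G3 lost a call without 3 to 5 of 6 libraries. With replicate number as a block, 32 members were called with hairpin 7 (25 higher, 7 lower) and 27 with hairpin 8 (19 higher, 8 lower). All called without the block were included. The shares were 41% and 34.6% of members, beside 40.0% and 39.6% of all genes. Mesenchymal markers moved here too, with a summed level of 34.3 to 55.6 CPM with hairpin 7 and 32.2 to 60.9 with hairpin 8, against 6.89 to 8.44 in controls, and 6 of 6 had a higher mean with hairpin 7 and 5 of 6 with hairpin 8. COL3A1 was at 0 in the D458 controls and averaged 0.0959 CPM with hairpin 7 and 0.0415 with hairpin 8, and the part of these markers in the changes above was not tested.

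No member of complex II was called by edgeR without a block in any comparison. The complex has only 4 members. Of all genes, 14.1% to 23.2% were called in the 4 hairpin comparisons and 62.8% between control cells. In D458, 3 of the 4 had an unadjusted p under 0.05 with hairpin 7 and 2 with hairpin 8, and DESeq2 called 0 with either. SDHA, the flavoprotein that oxidises succinate, had 175, 176 and 191 CPM with hairpin 7 and 154, 178 and 187 with hairpin 8, against 143, 163 and 160.5 in D458 controls. SDHB, the iron-sulfur subunit bound to it, had 82.6, 98.5 and 105 CPM with hairpin 7 and 77.3, 102 and 110.0 with hairpin 8, against 109, 118 and 122 in controls. SDHA libraries were above the controls with hairpin 7 and overlapped them with hairpin 8, and SDHB libraries were below with hairpin 7 and overlapped with hairpin 8. The log2 values were 0.22 ± 0.09 (adjusted p = 0.104) and 0.15 ± 0.09 (adjusted p = 0.252) for SDHA and -0.29 ± 0.11 (adjusted p = 0.0665) and -0.27 ± 0.11 (adjusted p = 0.0801) for SDHB. With the block SDHB passed with both hairpins (adjusted p = 0.00349 and 0.00421), as did the membrane anchor SDHD (0.0176 and 0.0196), and SDHA with hairpin 7 (0.0100). In D425 the log2 changes of the 4 genes ran from -0.15 to 0.04 with hairpin 6 and from -0.17 to -0.09 with hairpin 8; with the block, SDHC, the other anchor, passed with hairpin 8 (adjusted p = 0.0255).

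The summed level of each complex shows how far these changes reached. Complex I summed to 3216 to 3329 CPM with hairpin 6 and 3027 to 3181 with hairpin 8, against 2890.1 to 3066 in D425 controls, so the hairpin 6 libraries lay above the controls and the hairpin 8 libraries overlapped them. Complex IV summed to 1844 to 2046 CPM with hairpin 7 and 1889.8 to 1983 with hairpin 8, against 1711 to 1843 in D458 controls, above the controls in every library. Complex V in D425 summed to 4189.6 to 4393 CPM with hairpin 6 and 3881 to 4056 with hairpin 8, against 4096 to 4237 in controls, so the hairpin 6 libraries overlapped the controls and the hairpin 8 libraries lay below them. With hairpin 8 in D425 the sums of complex II (414 to 440 CPM, against 444 to 474) also lay below the controls. So did those of complex III (1456 to 1587, against 1654 to 1740), and with hairpin 6 both overlapped the controls. Complex IV in D425 lay above the controls with hairpin 6 (1493 to 1535, against 1430 to 1491) and overlapped them with hairpin 8. NDUFA4 is in the complex I sum by its symbol. In D458 the sums of complexes I, II, III and V overlapped between hairpins and controls. A sum is set mostly by its highest members and was not tested.

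**Figure D3:**
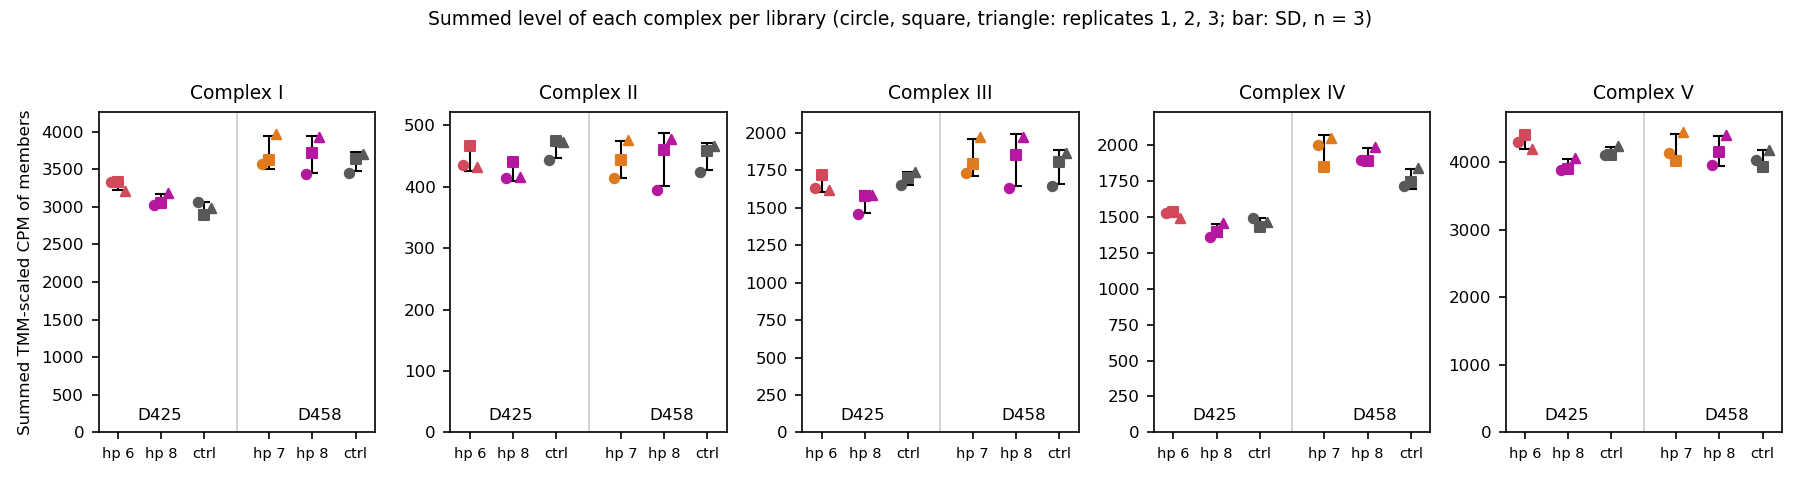
Summed TMM-scaled CPM of the members of each complex (y axis) in every library, by hairpin (hp) and control (ctrl) within D425 and D458 on the x axis, with circle, square and triangle for replicates 1, 2 and 3 and bars for the SD around the mean (n = 3). In D425 the hairpin 8 libraries lie below the hairpin 6 libraries for complexes I, III, IV and V; in D458 complex IV lies above its controls with both hairpins.

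Between the hairpins of a line no member was called, and no gene was called over all 14850 by edgeR without a block. In D425, hairpin 8 against hairpin 6, 10 members and 519 genes had an unadjusted p under 0.05, and DESeq2 called no member and 6 genes. The log2 differences ran one way: 73 of 78 members were lower with hairpin 8 than with hairpin 6, with a median of -0.10, beside 0.01 over all genes, of which 7678 of 14850 were higher with hairpin 8. Hairpin 8 libraries summed to 3027 to 3181 CPM for complex I, 1456 to 1587 for complex III and 3881 to 4056 for complex V, against 3216 to 3329, 1617 to 1715 and 4189.6 to 4393 with hairpin 6. None of these ranges overlapped. The TMM factors were 1.03 to 1.10 with hairpin 8 and 1.01 to 1.05 with hairpin 6; under upper-quartile scaling the median was -0.08, beside 0.02 over all genes, and their part in the shift was not tested. In D458, hairpin 8 against hairpin 7, no member had an unadjusted p under 0.05 (274 of all genes did), DESeq2 called no member and 4 genes, and the median was -0.01.

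Hairpin 8 was used in both lines, so its effect could be compared between them directly. The effect in D458 minus that in D425 was called for 8 members, 10.3%, beside 11.8% of all genes, with 7 higher in D458 (6.19% of all genes) and 1 lower (5.65%). Of genes averaging at least 100 counts, 13.6% were called. The largest difference was that of ATP5I, at 0.62 ± 0.14 (adjusted p = 0.00942), from 0.46 in D458 and -0.16 in D425. NDUFA8 differed by 0.55 ± 0.13 (adjusted p = 0.0117) and NDUFB5 by 0.48 ± 0.10 (adjusted p = 0.00823). For NDUFB5 both lines had passed the test on their own, with a rise in D458 and a fall in D425. UQCRB (0.40 ± 0.08, adjusted p = 0.00655), NDUFS1 (0.38 ± 0.09, adjusted p = 0.0145) and ATP5L (0.35 ± 0.08, adjusted p = 0.0137) were also higher in D458, as was COX6B1 (0.33 ± 0.10, adjusted p = 0.0405), and NDUFV2 was lower (-0.39 ± 0.11, adjusted p = 0.0252). The first 6 of these kept the call without each of 12 libraries in turn. NDUFV2 lost it without replicates 2 or 3 of the D425 controls, replicate 1 of D425 hairpin 8, replicates 1 or 3 of the D458 controls and replicates 1 or 2 of D458 hairpin 8. COX6B1 kept it only without D425 hairpin 8 replicate 3 or D458 hairpin 8 replicate 2. With the block 27 members were called, 34.6%, beside 26.5% of all genes. By DESeq2 the share was 21.8% beside 16.6%, and under upper-quartile scaling 8.97% beside 12%. Whether the members' share lay below or above that of all genes thus changed with the fit, and the gap was not tested. Among members called in one line only, several missed the test of the difference, among them NDUFA3 (0.42 ± 0.14, adjusted p = 0.0516, 95% interval 0.14 to 0.71), COX7A2L (0.41 ± 0.14, adjusted p = 0.0608, 0.12 to 0.70) and ATP5E (0.36 ± 0.12, adjusted p = 0.0573, 0.11 to 0.62), each of which passed with the block (adjusted p = 0.0186, 0.0123 and 0.0140). NDUFA4 stood at -0.39 ± 0.24 (adjusted p = 0.303) and at 0.00572 with the block. Across the 78 members, the effects in D458 and in D425 had a Pearson r of 0.104 and a Spearman rho of 0.115, and 39 had the same sign in both. Members are genes of the same libraries and not replicates, so no p is given.

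More members differed between the control cells of the lines than with any hairpin. Of the 78 members, 42 were higher in D458 than in D425 and 12 lower, 69.2% in all, beside 62.8% of all genes (31.4% higher and 31.4% lower) and 66% of genes averaging at least 100 counts, with a median of 0.23 beside 0.01. All complexes but complex II took part: 22 members of complex I were higher and 5 lower, 5 and 1 of complex III, 8 and 1 of complex IV and 7 and 5 of complex V. NDUFA1, an accessory subunit of complex I, was the only member past 2-fold, with 142, 136 and 146 CPM in D458 and 75.6, 65.2 and 66.6 in D425 controls (1.03 ± 0.08, adjusted p = 1.63e-08). NDUFA11, another accessory subunit, had 173, 181 and 193 CPM in D458 and 103, 97.6 and 107 in D425 (0.83 ± 0.07, adjusted p = 3.65e-08). NDUFA7 had 70.9, 90.4 and 80.9 CPM in D458 and 38.4, 43.1 and 41.6 in D425 (0.98 ± 0.10, adjusted p = 3.07e-07). All 3 had every D458 library above every D425 library. UQCR11, a small subunit of complex III, had 179.8, 181 and 186 CPM in D458 and 108, 104 and 103 in D425 (0.79 ± 0.07, adjusted p = 1.06e-07).

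Other members went the other way. ATP5A1, the alpha subunit of the catalytic head of ATP synthase, had 591, 508 and 569.8 CPM in D458 and 1003, 1043 and 1049 in D425 (-0.89 ± 0.07, adjusted p = 9.65e-09). ATP5C1, the gamma subunit of the central stalk, was higher in D458 (0.61 ± 0.07, adjusted p = 1.53e-06). ATP5B, the beta subunit of the head, differed by 0.18 ± 0.07 (adjusted p = 0.0261). NDUFB9, an accessory subunit of complex I, had 159.8, 149 and 143 CPM in D458 and 310.2, 244 and 269 in D425 (-0.87 ± 0.09, adjusted p = 2.51e-07). UQCRC1, a core protein of complex III, had 194, 225 and 236 CPM in D458 and 299, 329.8 and 340.3 in D425 (-0.57 ± 0.11, adjusted p = 0.000329), and ATP5J 93.2, 86.6 and 90.9 CPM in D458 and 114, 119 and 123 in D425 (-0.39 ± 0.06, adjusted p = 3.62e-05). The groups of these 4 genes did not overlap. Subunits of one complex thus differed in opposite directions between the lines. Of the 54 calls, 41 held without each of the 6 control libraries, those of the 8 genes given by library among them, while ATP5B and COX7A2L lost theirs without any one of them. NDUFA1, NDUFA7, ATP5A1, NDUFB9 and ATP5J share exon bases with a gene on the other strand (RNF113A, RPS28, HAUS1, TATDN1 and GABPA among them), so their reads may be mixed.

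**Figure D4:**
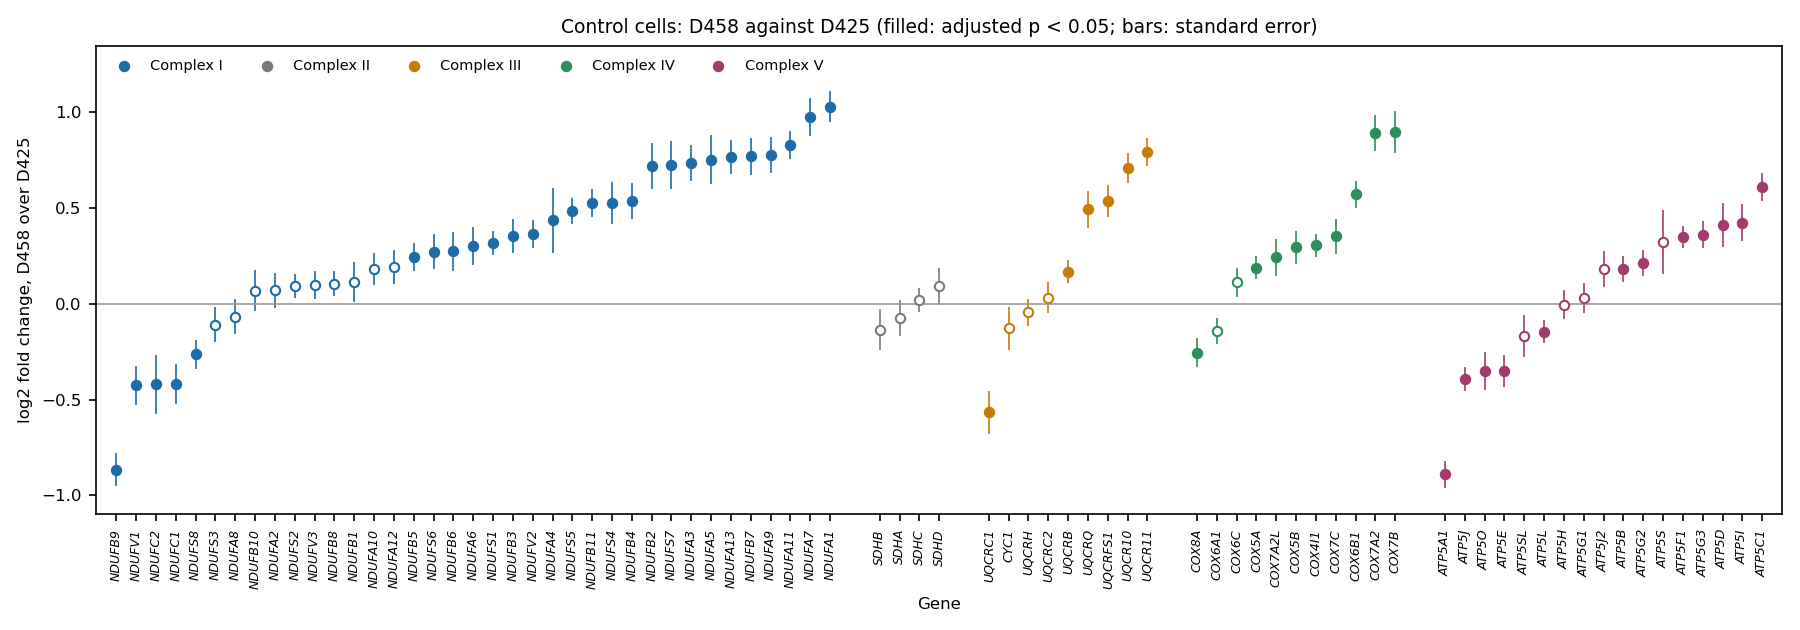
Log2 fold change between control cells, D458 over D425 (y axis, bars show the standard error), for the 78 members sorted within each complex (x axis), filled where adjusted p is under 0.05. Complexes I, III, IV and V hold members on both sides of 0, from ATP5A1 at -0.89 to NDUFA1 at 1.03, and complex II lies near 0 throughout.

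Members were next set beside the genes around them on the chromosome, up to 20 tested genes on each side by RefSeq order, other members left out. Between control cells the change of a member was correlated with the median change of its neighbours, with a Pearson r of 0.764 and a Spearman rho of 0.747 over 78 members, and 78.2% had the sign of their neighbours. Over the 10888 placed genes averaging at least 100 counts r was 0.324 and rho 0.462, with 68.2% of the same sign. UQCRC1 on chromosome 3 stood at -0.57 with neighbours at -0.62, ATP5A1 on chromosome 18 at -0.89 with neighbours at -0.68, and COX7B on chromosome X at 0.90 with neighbours at 0.97. NDUFA7 on chromosome 19 stood further out, at 0.98 with neighbours at 0.19. For the difference in hairpin 8 effect between lines, r was 0.609 and rho 0.575, beside 0.258 and 0.361 over the same genes. There 62.8% of members had the sign of their neighbours, beside 64.4% of those genes.

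In the 4 comparisons of a hairpin with its control r was lower, from 0.356 (D458 hairpin 7) to 0.586 (D425 hairpin 6). Over the genes averaging at least 100 counts it was 0.179 and 0.272. Spearman's rho of the members was nearer to that of these genes. In D425 it was 0.516 beside 0.357 with hairpin 6 and 0.424 beside 0.354 with hairpin 8. For D458 it was 0.3 beside 0.237 with hairpin 7 and 0.36 beside 0.239 with hairpin 8. The share with the sign of their neighbours was above that of these genes only with hairpin 6, at 71.8% of members beside 62.8%. With hairpin 8 in D425 it was 57.7% beside 62.0%. In D458 it was 50.0% beside 57.9% with hairpin 7 and 56.4% beside 58.8% with hairpin 8. Between the hairpins of a line r was 0.075 in D425 and 0.222 in D458. NDUFA8 on chromosome 9 lay close to its neighbours, at -0.41 and -0.49 in D425 with neighbours at -0.37 and -0.35. NDUFB5 on chromosome 3 was alike in D425, at -0.23 and -0.26 with neighbours at -0.22 and -0.18, but in D458 it stood at 0.21 with hairpin 8 and its neighbours at -0.03. COX6B1 on chromosome 19 was at 0.35 and 0.34 in D458 with neighbours at 0.31 and 0.23. In D425 the median over the placed genes of chromosome 9 was -0.30 with hairpin 6 and -0.27 with hairpin 8. On chromosome 20, where ATP5E stood at -0.28 and -0.38, it was -0.27 and -0.28. The median of chromosome 3 was -0.14 with either hairpin. Other members stood apart from their neighbours. NDUFA4 on chromosome 7 rose by 0.60 and 0.51 in D425 with neighbours at 0.06 and 0.01. COX7A2L on chromosome 2 rose by 0.43 and 0.48 in D458 with neighbours at 0.12 and 0.11, UQCRB on chromosome 8 by 0.30 and 0.35 with neighbours at -0.05 and 0.05, and ATP5I on chromosome 4 by 0.63 and 0.46 with neighbours at 0.23 and 0.11. These values come from the same libraries and are descriptions, and the part of chromosomal position in the members' changes was not tested.

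**Figure D5:**
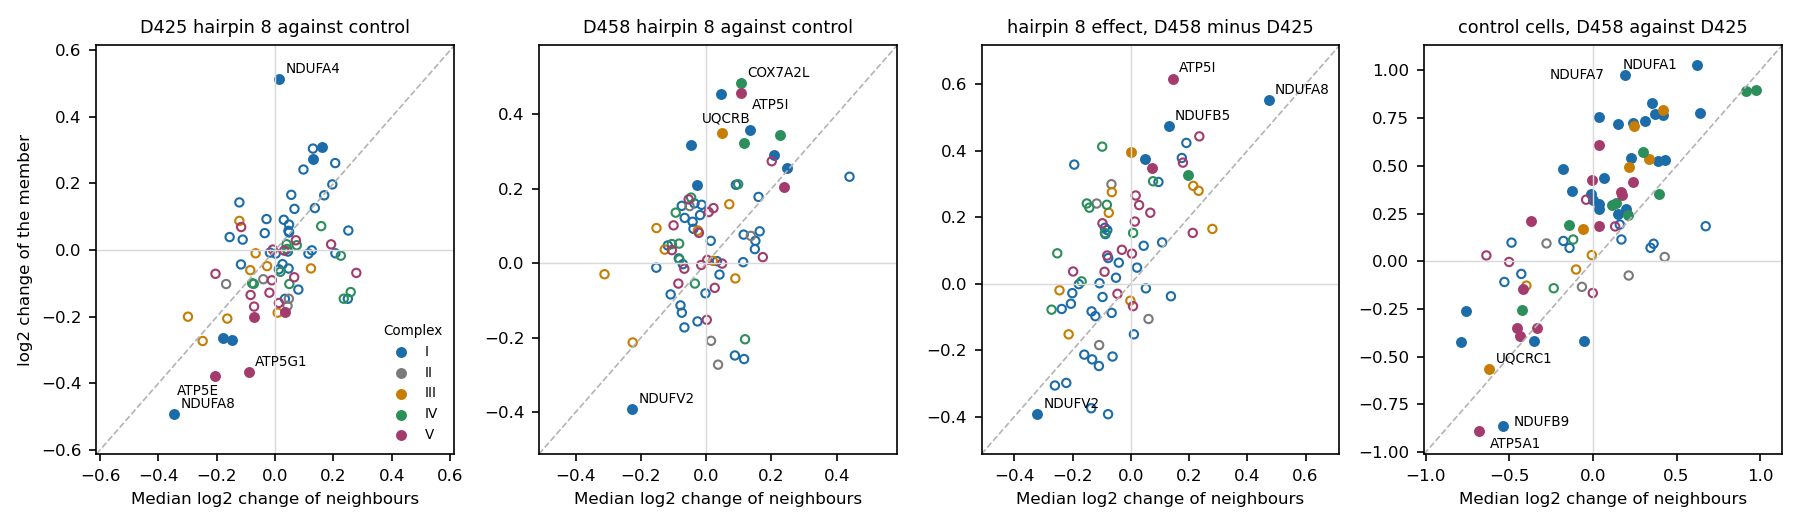
Log2 change of each member (y axis) against the median log2 change of up to 40 neighbouring genes (x axis), coloured by complex and filled where the member's adjusted p is under 0.05, for hairpin 8 in each line, the difference in its effect between lines and the control cells of the lines. The dashed line marks equal values; r is highest for the control cells (0.764), NDUFA8 lies near that line in the D425 panel and in that of the difference, and NDUFA4, COX7A2L and UQCRB lie away from the line.

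Genes that assemble or serve the chain were counted in the same way, and their counts stand beside 7.31% higher and 6.84% lower over all genes with hairpin 6, 11.6% and 10.1% with hairpin 8 in D425, 11.5% and 11.1% with hairpin 7 and 12.1% and 11.1% with hairpin 8 in D458. Of 44 tested assembly factors, 1 rose and 6 fell with hairpin 7 and 1 rose and 8 fell with hairpin 8, with medians of -0.14 and -0.14, beside 0.01 over all genes. In D425, 2 rose and 5 fell with hairpin 6, and 1 rose and 9 fell with hairpin 8, with medians of 0.01 and 0.01. Among the steadiest were TIMMDC1 and ACAD9, which help build complex I and fell in D425 (-0.43 and -0.42, -0.48 and -0.45). In D458 NDUFAF4, another complex I factor, fell (-0.56 ± 0.12 and -0.49 ± 0.12, adjusted p = 0.00371 and 0.00733), and COA5, a complex IV factor, rose (0.40 and 0.37). NDUFAF4 went the other way with hairpin 6 in D425 (0.43 ± 0.12, adjusted p = 0.0237), a call lost without control replicates 2 or 3 or hairpin replicates 1 or 2, and its hairpin 8 effect differed between lines by -0.83 ± 0.17 (adjusted p = 0.00485).

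Of 25 tested regulators of mitochondrial biogenesis, 1 rose and 6 fell with hairpin 7 and 2 rose and 10 fell with hairpin 8 in D458, with medians of -0.21 and -0.24, and 1 rose and 2 or 3 fell in D425. HCFC1, a cofactor of several such regulators (-0.66 ± 0.10 and -0.68 ± 0.10), and TFB2M, a factor of mitochondrial transcription (-0.50 ± 0.09 and -0.56 ± 0.09), fell in D458 and held the call without each library. PPARGC1A, the coactivator PGC-1alpha, rose in D458 (1.66 ± 0.31 and 1.70 ± 0.31, adjusted p = 0.00206 and 0.00166), to a mean of 6.30 ± 2.11 CPM with hairpin 7 and 6.49 ± 1.62 with hairpin 8, against 1.99 ± 0.21 in controls (SD, n = 3 each). In D425 it averaged 1.05 ± 0.17 CPM with hairpin 6 and 1.27 ± 0.23 with hairpin 8, against 2.32 ± 0.94 in controls, and the effect of hairpin 8 differed between lines by 2.57 ± 0.44 (adjusted p = 0.00196). MYC, itself a marker of these tumours, fell in D425 (-0.43 and -0.55). Its means were lower in D458 too, at 3416 CPM with hairpin 7 and 3391 with hairpin 8, against 4047 in controls. NRF1, whose letters were searched above, was called lower with hairpin 8 in D458 (-0.38 ± 0.12, adjusted p = 0.0310), a call lost without any D458 control or hairpin replicate 1.

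Of 19 tricarboxylic acid cycle genes, 1 rose and 3 fell with hairpin 6, 1 rose and 5 fell with hairpin 8 in D425, 2 rose and 1 fell with hairpin 7 and 2 rose and none fell with hairpin 8 in D458. SUCLG1, a subunit of succinyl-CoA ligase, rose in D425 (0.65 and 0.68), and IDH2, mitochondrial isocitrate dehydrogenase, rose in D458 (0.61 and 0.49). The medians of these 19 genes were -0.01 and -0.12 in D425 and 0.01 and -0.03 in D458. Of 20 electron carriers and quinone reductases, 2 rose and 1 fell with hairpin 6, none rose and 2 fell with hairpin 8 in D425, 2 rose and 2 fell with hairpin 7 and 1 rose and 4 fell with hairpin 8 in D458, with medians of 0.07, 0.01, -0.09 and -0.01. COQ4, needed for ubiquinone synthesis, fell in D425 (-0.50 and -0.47). Of 12 carriers and proteins beside ATP synthase, 2 rose with hairpin 6, 1 rose and 1 fell with hairpin 8 in D425, none was called with hairpin 7 and 1 rose with hairpin 8 in D458, with medians of 0.06, -0.10, 0.07 and 0.03.

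Tissue-specific isoforms of subunits were close to silent. COX4I2, COX6A2, COX6B2, COX7A1, COX7B2 and COX8C had at most 13 counts in any library. Of the 3 tested genes listed beside the symbol rule, 1 fell in each line and none rose. NDUFA4L2, a paralogue of NDUFA4, fell in D425, to 0.277, 0.349 and 0.267 CPM with hairpin 6 and 0.765, 0.293 and 0.306 with hairpin 8, against 1.65, 4.10 and 3.24 in controls (log2 -3.31 ± 0.43 and -2.70 ± 0.40). NDUFAB1, the acyl carrier subunit of complex I, which the symbol rule leaves out, fell in D458 (-0.35 ± 0.12 and -0.39 ± 0.12, adjusted p = 0.0447 and 0.0248), calls lost without 5 and 4 of 6 libraries.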

How the data were processed

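Polyadenylated RNA of 18 libraries was sequenced from strand-specific libraries, per the labels' protocols. The authors deposited whole-number read counts per gene symbol, with no normalization, and every column was used. Per the submitters' processing notes, the tools were HTSeq, TopHat2, Bowtie2, Picard, SAMtools, FastQC and bcl2fastq, with GRCh37/hg19 as the build. Their versions, any use of strand in counting and the treatment of multiply mapped reads were not given in the sources used here. Members sharing exon bases with another gene (6 on the same strand, 22 on the opposite one, in the GENCODE 29 annotation) are therefore uncertain.

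Counts were analysed in edgeR 4.0.16 (R 4.3.3, with limma 3.58.1), and DESeq2 1.42.0 was an alternative. Genes passing filterByExpr (minimum count 10) on the group design were kept (14850, with 10519 removed), scaled by TMM and fitted together in 1 robust quasi-likelihood model with a coefficient for each of 6 groups, which leaves 12 residual degrees of freedom. Adjusted p values are Benjamini-Hochberg values over all genes tested, from glmQLFTest unless another tool is named, in 8 comparisons. The procedure was tested on simulated data. Intervals are 95% intervals.

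The members and the other gene lists were chosen with earlier results of these data known. By rule, values per library are given for members called alike in all 4 hairpin comparisons, members called in opposite directions in the lines, up to 3 called members per complex with the smallest adjusted p, up to 6 members called for the difference between lines, and the 4 higher and 4 lower members with the smallest adjusted p between controls. Most members named for hairpin calls are given by library in a single line, NDUFB5 in D425 alone, and ATP5L by its log2 changes only. NDUFA4, NDUFA12 and the complex II genes were added after their values were seen. Up to 3 called genes per direction could be named from each other list.

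Per the labels, a replicate number goes with 1 description prefix in all groups, whose meaning is not stated, and with 1 date within each line, but replicates 2 and 3 carry the same date. Once group means were removed, same-number libraries within a line correlated at 0.08 to 0.61 in D425 and 0.13 to 0.70 in D458. Different numbers averaged -0.14 and -0.17. Removing group means largely sets these averages from the same-number values, so they are no separate sign of pairing. In D425 1 of the 9 same-number correlations was under 0.1, and replicates 2 and 3 of the D425 controls correlated with hairpin 6 replicates of the other number (0.191 and 0.197) more than with their own (0.148 and 0.084). The prefix was therefore the ground for the replicate block, which was kept as an alternative, and the numbers may not pair replicates 2 and 3. Alternatives were RLE and upper-quartile scaling, no filter, DESeq2, fits within a line, the replicate block, other count minimums for members, core subunits alone and leaving out libraries. No 2 libraries were identical (highest pairwise r 0.9945). Promoters and gene order come from RefSeq on GRCh38.p14, matched by symbol for all 78 members, 18 of them by an older symbol, and 14497 of the tested genes were placed. Its coordinates were not joined to those of the alignment build.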

Additional observations from a re-analysis of the deposited data

Results flagged for a closer look

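A set of 8 members stood out because the effect of hairpin 8 differed between the lines by a test of that difference. For UQCRB the log2 difference, D458 minus D425, was 0.40 ± 0.08 (adjusted p = 0.00655), from 0.35 in D458 and -0.05 in D425. NDUFB5 differed by 0.48 ± 0.10 (adjusted p = 0.00823), from 0.21 and -0.26, ATP5I by 0.62 ± 0.14 (adjusted p = 0.00942), from 0.46 and -0.16, and NDUFA8 by 0.55 ± 0.13 (adjusted p = 0.0117), from 0.06 and -0.49. ATP5L differed by 0.35 ± 0.08 (adjusted p = 0.0137), from 0.15 and -0.20, and NDUFS1 by 0.38 ± 0.09 (adjusted p = 0.0145), from 0.26 and -0.12. NDUFV2 had the only negative value, -0.39 ± 0.11 (adjusted p = 0.0252), from -0.39 in D458 and -0.00 in D425, and COX6B1 stood at 0.33 ± 0.10 (adjusted p = 0.0405), from 0.34 and 0.02. UQCRB, ATP5I, NDUFS1, COX6B1 and NDUFV2 had their called change in D458, NDUFA8 and ATP5L in D425, and NDUFB5 in both.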

How the results depend on the processing

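With replicate number as a block, 18 members were called with hairpin 6 and 20 with hairpin 8 in D425, in place of 8 and 10. In D458 it was 32 with hairpin 7 and 27 with hairpin 8, and 27 for the difference between lines, in place of 12, 13 and 8. In that order, these were 23.1%, 25.6%, 41%, 34.6% and 34.6% of members, beside 27.8%, 37.2%, 40%, 39.6% and 26.5% of all genes. Each called set held all members called without the block. Between control cells the block gave 53 in place of 54, with 48 shared. DESeq2 called 21 members with hairpin 7 in D458 (26.9%, beside 26.1% of all genes) and 17 for the difference between lines (21.8% beside 16.6%). Upper-quartile scaling gave 22 with hairpin 7 in D458 (28.2% beside 21.6%). With no filter on low counts, 4 members were called with hairpin 8 in D425 (12.9% of all genes). Leaving out single libraries or all libraries of a replicate number gave 0 to 10 calls with hairpin 6 and 1 to 10 with hairpin 8 in D425, 2 to 16 with hairpin 7 and 4 to 12 with hairpin 8 in D458, 0 to 11 for the difference between lines and 39 to 50 between controls. Without replicate 1 throughout, 10 were called with hairpin 6 in D425 (23.3% of all genes), against 0 without replicate 2 (0.770%) and 0 without replicate 3 (0.902%). Differences between hairpins of a line stayed at 0 calls in each setting run. For single named members, 684 values under the alternatives kept direction and call, 177 kept direction without passing and none reversed. The cause of these shifts was not tested. Leaving out libraries leaves fewer samples, and the counts also differed with the replicate number left out. Each member averaged at least 188 counts, and the precision is limited by 3 replicates in a group.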
